A study of Oryzias latipes with 12 samples.

Results

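The messenger RNAs of 75 mitochondrial ribosomal protein genes were followed in the brain of medaka (Oryzias latipes), a small rice fish whose breeding depends on day length. The genes were taken by name, as every gene whose symbol starts with mrpl or mrps and then a number. That rule was set with earlier results of these data known. Such a name was carried by 75 of 26663 genes, 47 of them mrpl and 28 mrps. All 75 reached 1 TPM in 3 libraries or more, the condition for testing, which 18218 genes met. TPM is a transcript level scaled for length and to a fixed total per library. The libraries came from a dissected piece of brain that held ventral telencephalon, hypothalamus and pituitary, always taken at hour 12. They formed 4 groups of 3 libraries. The first was phod1 knockout (KO) fish 12 days after a move to long days, and the second was wild-type (WT) fish 12 days after the same move. The other groups were KO and WT fish still under short days, taken before the move. The knockout is written pd1 in the sample labels and phod1 in the design text. The labels name no allele, strain, age or sex, and they do not say how many fish went into a library. Every long-day library was taken later than every short-day library, so day length, the time since the move and age cannot be told apart. Nothing in the labels says that the libraries of a group came from separate fish, so the p-values measure only the spread between these libraries, which may be technical.

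The mitochondrial ribosome sits in the matrix of the mitochondrion and translates the few proteins that mitochondrial DNA still encodes, all of them core subunits of the respiratory chain and ATP synthase. Its RNA is made inside the organelle, but its proteins are encoded in the nucleus, made in the cytosol and imported. Some of them descend from proteins of the bacterial ribosome, and others were added during the evolution of mitochondria. Neurons depend heavily on respiration, and mutations in several of these genes cause brain and heart disease in humans.

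By symbol, 1 of 6 neuronal, 3 of 6 telencephalic, 4 of 8 hypothalamic and 7 of 10 pituitary markers sought were found. Those found were present in every library, apart from 1 pituitary gene. The neuronal gene elavl3 stood at 135 to 186 TPM. The hypothalamic gene nkx2-1 stood at 13.2 to 17.2 TPM. The pituitary hormone subunit gene cga had 1130.4 to 1991 TPM in long-day and 202 to 440.2 TPM in short-day libraries, while prl, another pituitary hormone gene, was at 0 to 0.35 TPM. One library stood apart, WT short-day replicate 3, in which 5 interferon and antiviral genes summed to 498 TPM, against 24.1 to 40.3 TPM in the other 11. The targeted gene was not analysed here, since neither of its names matched a symbol. In bulk tissue, fewer cells of a type and less RNA per cell cannot be told apart.

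The 75 genes were expressed at moderate and similar levels. Their mean over the 12 libraries had a median of 53.5 TPM (25th to 75th percentile, 37.9 to 66.0 TPM), against a median of 17.5 TPM over all tested genes. The means of 70 genes lay between 20 and 100 TPM, 4 lay above and 1 below. Single libraries ran from 10.3 TPM, for mrpl58, to 189 TPM, for mrpl33. On this per-length scale the median was 55.7 TPM for the mrpl genes and 43.6 TPM for the mrps genes.

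The highest mean was that of mrps18c, at 136 TPM, whose product is the closest of the S18 proteins to that of bacteria. Next were mrpl33 at 136 TPM, which encodes a small protein of the large subunit, mrpl3 at 129 TPM, mrpl53 at 109 TPM and mrpl9 at 88.5 TPM. The first 3 cannot be ranked, since their libraries overlapped. The lowest was mrpl58, at 14.1 TPM, which encodes a peptidyl-tRNA hydrolase that in humans releases stalled chains and is also built into the large subunit. Above it came mrps30 at 20.3 TPM, mrps2 at 22.1 TPM, mrps31 at 23.4 TPM and mrpl46 at 24.8 TPM. Each of these 5 overlapped with the next in its libraries.

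The S18 number is shared by 3 genes. In mammalian structures the mrps18a protein lies in the large subunit, while the mrps18b and mrps18c proteins lie in the small one. The mean was 59.8 TPM for mrps18a, 69.0 TPM for mrps18b and 136 TPM for mrps18c, and in each of the 12 libraries mrps18c was above the others. Its lowest library stood at 125 TPM, whereas the highest library of mrps18b stood at 79.1 TPM and that of mrps18a at 70.0 TPM.

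**Figure D1:**
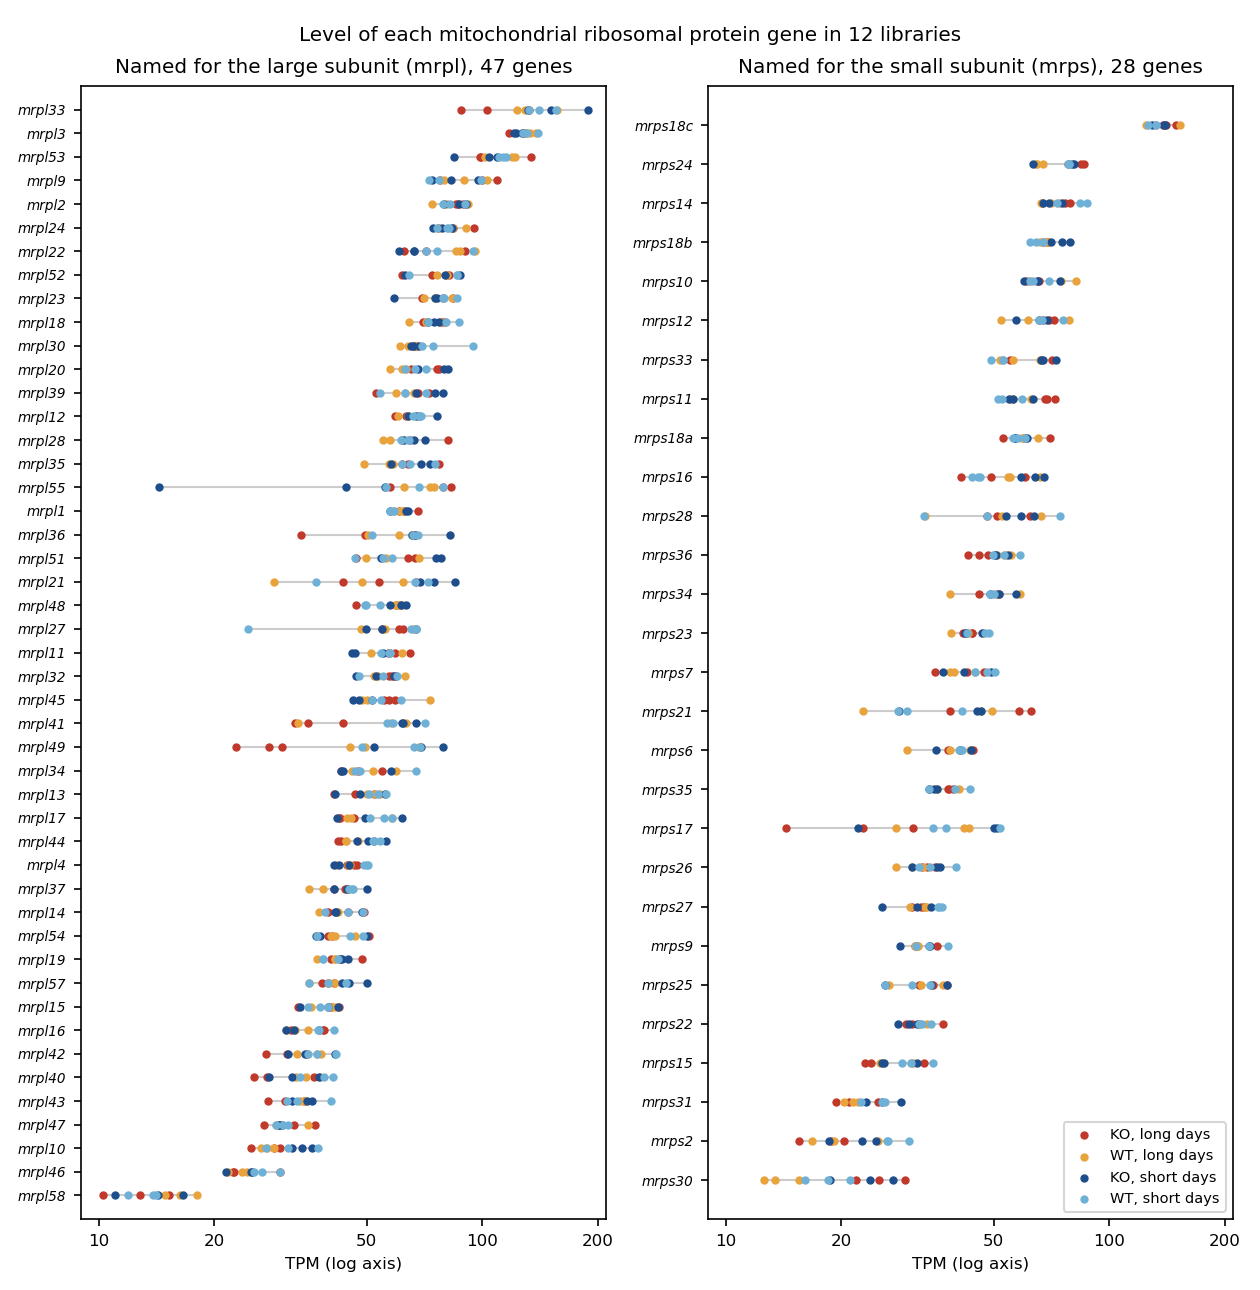
Level of each mitochondrial ribosomal protein gene in TPM on a log axis, 1 point per library, coloured by group, with mrpl genes left and mrps genes right, in order of their mean. Most points lie between 20 and 100 TPM, and single low points stand out for mrpl55 (14.4 TPM) and mrpl27 (24.5 TPM).

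Added together, the 75 genes took 0.394% to 0.426% of all TPM in a library. Their sum was 4073, 3938 and 4218 TPM in KO long-day libraries. In WT long-day libraries it was 4109.8, 4134 and 3979 TPM. The sum in KO short-day libraries was 4091, 4258 and 4214 TPM, and in WT short-day libraries it was 4242, 4173 and 4177 TPM. All 4 groups overlapped in this sum, except that the 3 WT long-day libraries were each below the 3 WT short-day libraries. The sum of the mrps genes divided by that of the mrpl genes was 0.514 to 0.528 in KO long-day libraries and 0.479 to 0.500 in WT long-day libraries, without overlap. Under short days this ratio was 0.480 to 0.516 in KO and 0.475 to 0.496 in WT libraries, which overlapped. The ratio and the sums were not tested, because they are scores over genes chosen with results of these data known.

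**Figure D2:**
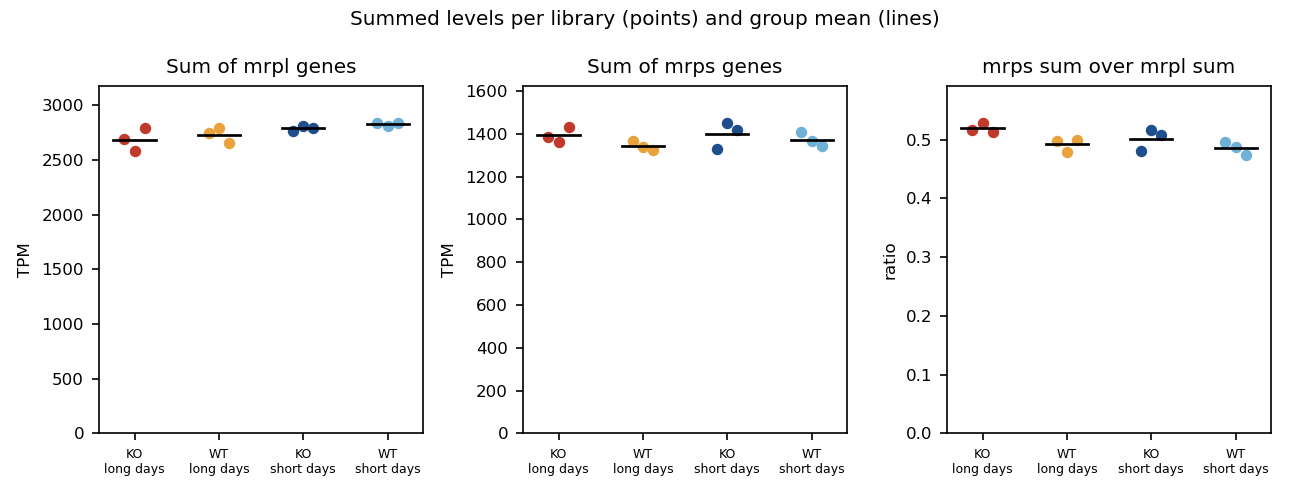
Summed TPM of the 47 mrpl genes, summed TPM of the 28 mrps genes, and the mrps sum divided by the mrpl sum, 1 point per library with the group mean as a line. The sums differ little between groups, and the ratio of the KO long-day libraries (0.514 to 0.528) lies above that of the WT long-day libraries (0.479 to 0.500).

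Most of these genes also kept similar levels across genotype and photoperiod. The highest of the 4 group means was under 1.2 times the lowest for 49 genes, from 1.2 to under 1.5 times for 18, and at least 1.5 times for 8. Within groups, the pooled SD of log2(TPM + 1) had a median of 0.138 over the 75 genes, against 0.164 over all tested genes. It was 0.118 over the 2263 tested genes whose mean lay in the same range of TPM as the middle of these genes. The steadiest were mrpl4, mrps18b, mrpl3, mrpl1 and mrps36. The least steady were mrpl55, mrps17, mrpl27, mrps21 and mrpl21.

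In the unsteady genes, single libraries had low values. A library lay over 1.5 times beyond both others of its group in 13 of 900 pairs of gene and library (1.44%), which belonged to 7 genes, against 6.66% over all tested genes. The tested genes include many at lower levels (median 17.5 TPM), and no such share was taken over genes of similar level. In 12 of those 13 pairs the library was the low one. Over all tested genes, a library was the low one for 459 to 907 genes and the high one for 469 to 692 genes. The gene mrpl27, whose product reaches towards the peptidyl transferase centre in bacteria, had 62.1, 60.7 and 55.0 TPM in KO long-day and 66.0, 55.8 and 48.2 TPM in WT long-day libraries. It had 49.8, 54.7 and 67.4 TPM in KO short-day and 67.2, 24.5 and 65.3 TPM in WT short-day libraries, so 1 WT short-day library lay far below the other 11. For mrps21, a small-subunit gene, the values were 58.2, 38.4 and 62.5 TPM in KO and 22.8, 46.4 and 49.5 TPM in WT libraries under long days. Under short days mrps21 had 28.3, 45.1 and 46.3 TPM in KO and 29.7, 41.3 and 28.1 TPM in WT libraries. The genotypes overlapped for mrps21 under both day lengths. For mrpl21, which encodes a large-subunit protein, KO libraries had 53.8, 43.4 and 67.2 TPM and WT libraries 28.6, 48.5 and 62.3 TPM under long days. Under short days mrpl21 had 85.1, 69.0 and 74.9 TPM in KO and 72.3, 67.0 and 36.9 TPM in WT libraries, the last of which is the library with high interferon genes. Genes with a single transcript model, 52 of the 75, had a median pooled SD of 0.151, and the 23 with several had 0.130.

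Within the knockout, long days were compared with short days. Just 1 of the 75 genes passed the test in limma, mrpl49, which fell, while 1.76% of all tested genes passed and 0.653% passed and were lower. It encodes a large-subunit protein that has no bacterial counterpart. Its level was 22.9, 30.1 and 27.9 TPM in KO long-day libraries and 69.4, 79.2 and 52.4 TPM in KO short-day libraries. The groups did not overlap, and the means were 27.0 ± 3.73 and 67.0 ± 13.5 TPM (SD, n = 3 each). The log2 difference, which throughout is that of group means of log2(TPM + 1), was -1.27 with an SE of 0.19 (limma, Benjamini-Hochberg adjusted p = 0.0101). The call was kept in all 16 settings of the fit, with an adjusted p of 0.00523 to 0.0499. In WT libraries the same gene had 45.3, 68.6 and 49.4 TPM under long days and 66.5, 68.7 and 48.6 TPM under short days, which overlapped. The 7 pituitary markers found summed to 4651 to 9224 TPM in KO long-day and 2114 to 9270.0 TPM in KO short-day libraries, with prl at or near 0. That sum was carried by pomc, which overlapped between day lengths (2576 to 5991 TPM in KO long-day and 1602 to 8537 TPM in KO short-day libraries). The 3 gonadotropin subunit genes among them were higher in KO long-day than in KO short-day libraries without overlap. In the same order, cga had 1130.4 to 1991 against 202 to 387 TPM, fshb 602 to 635 against 163 to 206 TPM, and lhb 255 to 582 against 62.5 to 85.9 TPM. Markers of other kinds were apart in these libraries too. The telencephalic markers found summed to 138 to 160 TPM in KO long-day and 123 to 133 TPM in KO short-day libraries. In the same order, the radial glia markers cyp19b (632 to 754 against 225 to 323 TPM) and s100b (884 to 1132 against 642 to 743 TPM) were higher. The radial glia marker fabp7 was lower (1455 to 1770 against 1847 to 2328 TPM). The part of all these markers in the fall of mrpl49 was not tested.

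The other 74 genes did not pass in this comparison. Their order by size began with mrps17, mrpl41, mrpl36 and mrpl33 on the low side and mrpl55, mrps21, mrpl11, mrps11 and mrpl45 on the high side. The large-subunit gene mrpl41 had 32.5, 35.2 and 43.5 TPM in KO long-day and 61.8, 62.1 and 67.0 TPM in KO short-day libraries, without overlap (log2 difference -0.77, SE 0.20, adjusted p = 0.0852, limma). The small-subunit gene mrps17 had 14.3, 30.7 and 22.8 TPM in KO long-day and 22.2, 50.2 and 51.1 TPM in KO short-day libraries. These overlapped through the first short-day library (log2 difference -0.80, SE 0.33, adjusted p = 0.269, limma). For mrpl33 the values were 132, 103 and 88.2 TPM in KO long-day and 132, 189 and 151 TPM in KO short-day libraries, which overlapped by less than 1 TPM (log2 difference -0.55, SE 0.16, adjusted p = 0.118, limma).

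On the high side, mrpl55 had 83.0, 78.8 and 57.5 TPM in KO long-day and 44.2, 14.4 and 55.7 TPM in KO short-day libraries (log2 difference 1.10, SE 0.37, adjusted p = 0.173, limma). The groups did not overlap, but 1 short-day library, at 14.4 TPM, lay far below the others of its group. The stalk gene mrpl11, whose bacterial relative helps bind elongation factors, had 56.7, 59.4 and 65.0 TPM in KO long-day and 45.7, 46.7 and 55.1 TPM in KO short-day libraries (log2 difference 0.29, SE 0.09, adjusted p = 0.134, limma). The small-subunit gene mrps11 had 72.0, 68.0 and 68.7 TPM in KO long-day and 56.2, 63.3 and 54.8 TPM in KO short-day libraries (log2 difference 0.26, SE 0.08, adjusted p = 0.135, limma). Neither pair overlapped. The exit tunnel gene mrpl45, whose product holds the ribosome to the inner membrane, did not overlap either (log2 difference 0.24, SE 0.13, adjusted p = 0.406, limma). Of the 75 genes 5 were higher and 7 lower without overlap, against 12.8% higher and 9% lower of all tested genes. Their median log2 difference was 0.012, and that of all tested genes was 0.029.

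**Figure D3:**
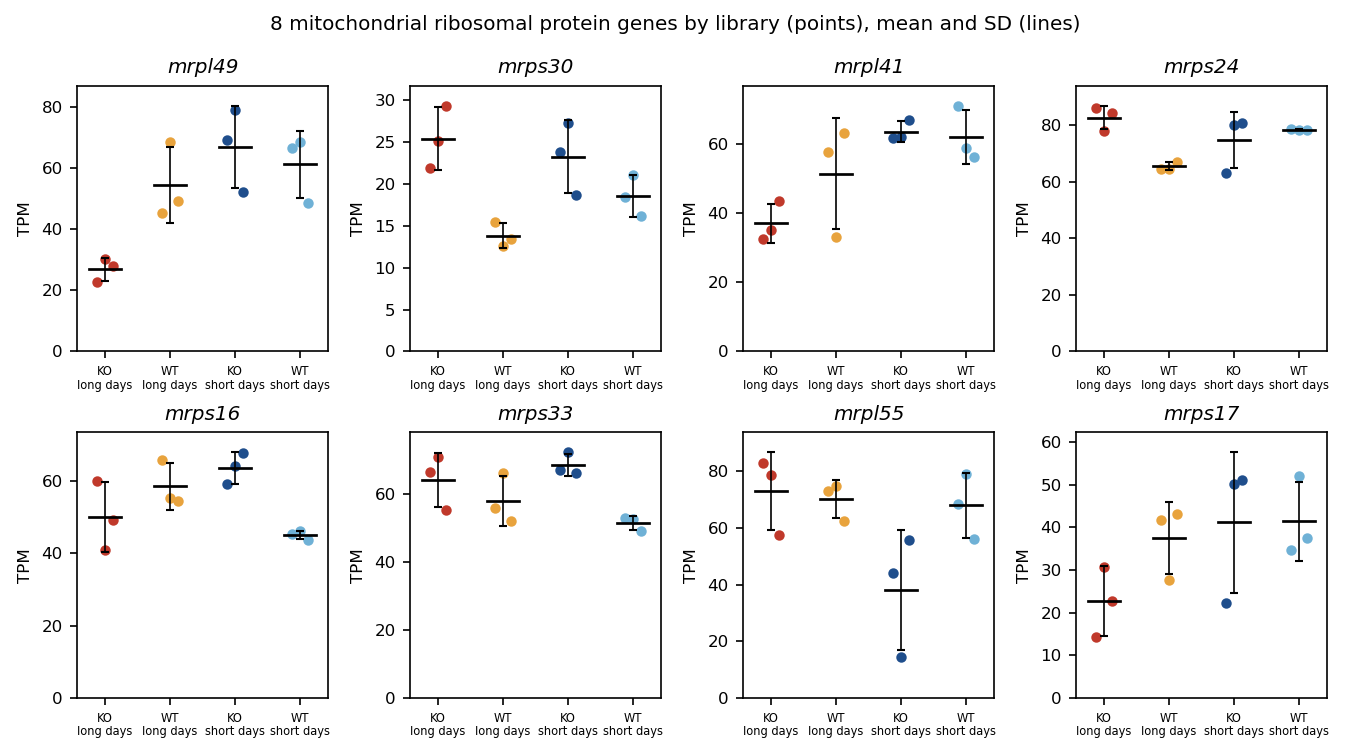
TPM of mrpl49, mrps30, mrpl41, mrps24, mrps16, mrps33, mrpl55 and mrps17 by library (points), with the mean and SD of each group of 3 (lines). The 3 KO long-day libraries of mrpl49 (22.9 to 30.1 TPM) lie below the other 9 libraries, and the 3 WT long-day libraries of mrps30 (12.6 to 15.5 TPM) lie below the other 9.

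In wild type, the comparison of long with short days is the ordinary response to day length, together with the time that passed. Under limma 0 of the 75 genes passed, against 0.192% of all tested genes. At an unadjusted p under 0.05 there were 12 of the 75 genes, 16%, against 11.6% of all tested genes. The largest differences belonged to small-subunit genes. The gene mrps2 had 19.2, 16.8 and 24.9 TPM in WT long-day and 26.4, 26.5 and 30.0 TPM in WT short-day libraries, without overlap (log2 difference -0.44, SE 0.15, adjusted p = 0.286, limma). In the other direction mrps16 had 65.9, 55.2 and 54.5 TPM in WT long-day and 45.5, 46.1 and 43.8 TPM in WT short-day libraries, without overlap (log2 difference 0.36, SE 0.12, adjusted p = 0.276, limma).

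Further low differences in wild type were those of mrps30, mrpl21, mrpl41 and mrpl30, and further high ones those of mrpl58, mrpl48, mrps21 and mrpl27. The large-subunit gene mrpl30 had 61.2, 67.3 and 64.2 TPM in WT long-day and 74.5, 69.5 and 94.8 TPM in WT short-day libraries, where the highest is the library with high interferon genes. Its groups did not overlap (log2 difference -0.29, SE 0.10, adjusted p = 0.258, limma). The rescue factor gene mrpl58 had 18.1, 16.3 and 14.9 TPM in WT long-day and 13.8, 14.1 and 12.0 TPM in WT short-day libraries, also without overlap (log2 difference 0.28, SE 0.16, adjusted p = 0.535, limma). Without overlap were 3 genes that were higher and 14 that were lower, against 4.95% higher and 12.1% lower of all tested genes. The median log2 difference was -0.039 over the 75 genes and -0.046 over all tested genes.

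Averaged over both genotypes, long days went with a lower level of mrpl49, the only 1 of the 75 genes to pass, against 3.08% of all tested genes in either direction and 1.82% that fell (log2 difference -0.72, SE 0.14, adjusted p = 0.0191, limma). The call rests on the KO libraries described above and was lost without WT long-day replicate 15 (adjusted p = 0.0515) or WT short-day replicate 2 (adjusted p = 0.0508). Next in size came mrpl55, mrpl41, mrps17, mrpl21 and mrps2, none of which passed. For mrpl41 the log2 difference was -0.54 (SE 0.14, limma adjusted p = 0.0662). It passed without WT long-day replicate 14, the low library of its group with 33.1 TPM beside 57.8 and 63.3 TPM (adjusted p = 0.0376). The median log2 difference was -0.043 over the 75 genes and -0.0086 over all tested genes.

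**Figure D4:**
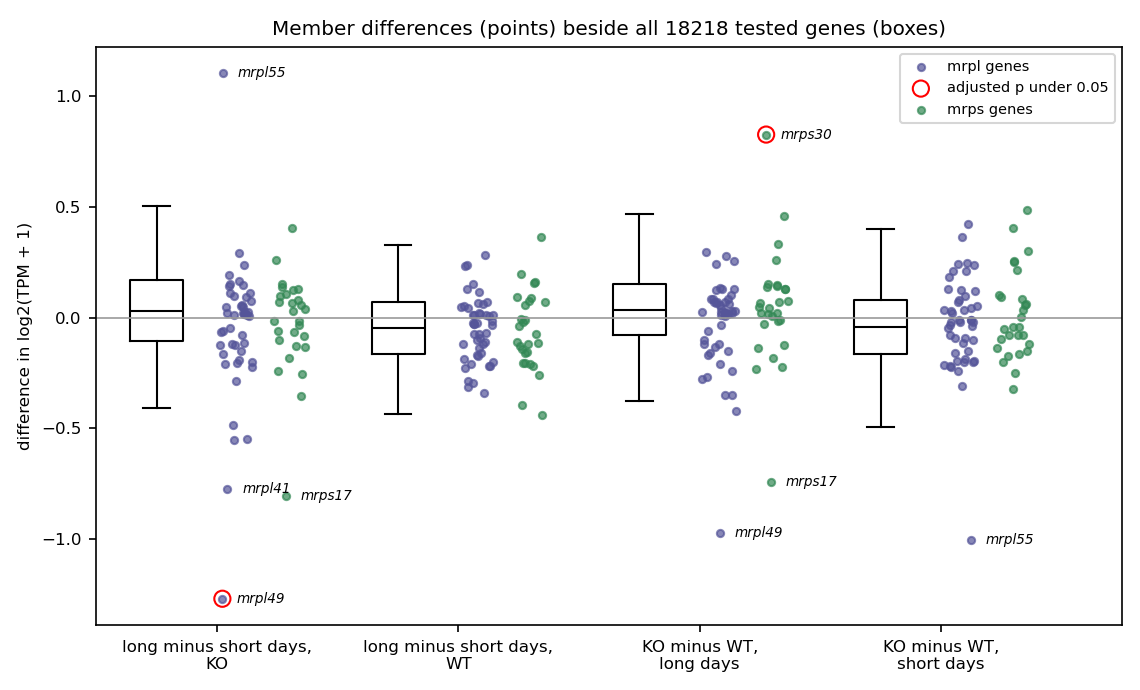
Log2 difference of each gene (points, mrpl and mrps apart) in 4 comparisons, beside boxes for all 18218 tested genes (box, 25th to 75th percentile with the median; whiskers, 5th to 95th percentile). Most points lie within the whiskers, and the 2 circled points with an adjusted p under 0.05 are mrpl49 (-1.27) and mrps30 (0.83).

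Under long days KO was compared with WT. Of the 75 genes 1 passed in limma, mrps30, which was higher in KO, against 0.642% of all tested genes in either direction and 0.472% that were higher. Despite its name, the product of mrps30 lies in the large subunit in mammalian structures, and it has no bacterial counterpart. The gene had 21.9, 25.1 and 29.4 TPM in KO long-day libraries and 15.5, 12.6 and 13.4 TPM in WT long-day libraries. The groups did not overlap, and the means were 25.5 ± 3.77 and 13.9 ± 1.49 TPM (SD, n = 3 each). The log2 difference was 0.83 with an SE of 0.15 (limma, adjusted p = 0.0411). This call was held in 8 of 17 settings, with an adjusted p of 0.0126 to 0.359. It was lost without KO replicate 14 or 16 (adjusted p = 0.121 for each) and without WT replicate 13, 14 or 15 (adjusted p = 0.0783, 0.116 and 0.136). It was lost as well with a replicate block, where its adjusted p was highest at 0.359. That block compared KO with WT only through replicates 13 and 14, with fewer residual degrees of freedom than the main fit. Other settings that lost the call were median-ratio scaling between libraries (adjusted p = 0.0641) and the filter of TPM above 0 in any library (adjusted p = 0.0558). So did the fit without a trend in the prior variance (adjusted p = 0.0653). In the same libraries the 3 radial glia markers found, of 6 sought, summed to 3019 to 3656.5 TPM in KO long-day and 3907 to 4327 TPM in WT long-day libraries, and the pituitary gene fshb had 602 to 635 TPM in KO long-day and 897 to 1083 TPM in WT long-day libraries. Neither overlapped. Of the 3 glia markers only fabp7 was apart by itself (1455 to 1770 TPM in KO long-day and 2057 to 2215 TPM in WT long-day libraries). The other glia markers, cyp19b and s100b, overlapped between genotypes. The part of these glia and pituitary markers in the difference of mrps30 was not tested.

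Under the same comparison mrpl49 was on the other side, with 22.9, 30.1 and 27.9 TPM in KO long-day and 45.3, 68.6 and 49.4 TPM in WT long-day libraries. It did not overlap and just missed the threshold (log2 difference -0.97, SE 0.19, adjusted p = 0.0505, limma), and passed in 4 of 17 settings. The comparison shares its KO long-day libraries with that of long against short days in the knockout. The small-subunit gene mrps24, the relative of bacterial S3, had 85.9, 78.0 and 84.2 TPM in KO long-day and 64.6, 64.7 and 67.0 TPM in WT long-day libraries, without overlap (log2 difference 0.33, SE 0.09, adjusted p = 0.128, limma). The large-subunit gene mrpl35 did not overlap either, with 77.3, 61.9 and 64.2 TPM in KO long-day and 58.5, 57.1 and 49.2 TPM in WT long-day libraries (log2 difference 0.30, SE 0.12, adjusted p = 0.354, limma).

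The remaining large differences under long days were higher means of mrps21 and mrpl21 and lower means of mrps17, mrpl41, mrpl33 and mrpl58 in KO libraries. All of these overlapped between genotypes. Without overlap, 6 genes were higher in KO (mrpl20, mrpl28, mrpl35, mrps11, mrps24 and mrps30) and 3 were lower (mrpl3, mrpl49 and mrps36), against 10.2% higher and 5.58% lower of all tested genes. The gene mrps36 encodes a protein first counted with the small subunit and since found in the 2-oxoglutarate dehydrogenase complex. It had 45.7, 48.4 and 42.8 TPM in KO long-day and 51.1, 53.6 and 55.4 TPM in WT long-day libraries (log2 difference -0.22, SE 0.08, adjusted p = 0.269, limma). The median log2 difference was 0.025 over the 75 genes and 0.036 over all tested genes.

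Under short days 0 of the 75 genes passed between KO and WT in limma, against 0.664% of all tested genes. At an unadjusted p under 0.05 there were 12 of the 75, against 13.2% of all tested genes. The small-subunit gene mrps16 had 59.1, 64.2 and 67.7 TPM in KO short-day and 45.5, 46.1 and 43.8 TPM in WT short-day libraries (log2 difference 0.49, SE 0.12, adjusted p = 0.117, limma). For mrps33, a small-subunit gene without a bacterial counterpart, the values were 67.3, 72.5 and 66.3 TPM in KO short-day and 52.9, 52.7 and 49.1 TPM in WT short-day libraries (log2 difference 0.41, SE 0.10, adjusted p = 0.118, limma). The groups of both genes were apart.

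On the low side under short days, mrpl55 had 44.2, 14.4 and 55.7 TPM in KO and 68.5, 79.2 and 56.2 TPM in WT libraries, without overlap by under 1 TPM (log2 difference -1.01, SE 0.37, adjusted p = 0.279, limma). The exit tunnel gene mrpl22 had 60.7, 66.6 and 66.6 TPM in KO short-day and 76.0, 71.5 and 94.8 TPM in WT short-day libraries (log2 difference -0.31, SE 0.13, adjusted p = 0.345, limma). Its highest value, 94.8 TPM, is from the library with high interferon genes. The others at the ends of the order were mrpl21, mrpl51 and mrps30 on the high side and mrps2, mrps27 and mrpl30 on the low side. Without overlap were 5 genes that were higher in KO and 11 that were lower, against 6.3% higher and 13.2% lower of all tested genes. The median log2 difference was -0.019 over the 75 genes and -0.041 over all tested genes.

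Averaged over both day lengths, mrps30 was higher in KO and was the only 1 of the 75 genes to pass, against 2.4% of all tested genes in either direction and 1.3% that were higher (log2 difference 0.56, SE 0.11, adjusted p = 0.0234, limma). Under short days it had 23.9, 27.3 and 18.7 TPM in KO and 18.5, 21.2 and 16.1 TPM in WT libraries, which overlapped. The pooled call was lost, with adjusted p-values of 0.0507 to 0.0576, without KO long-day replicate 14 or 16, WT long-day replicate 14 or 15, or WT short-day replicate 1 or 3. It was also lost with a replicate block (adjusted p = 0.173). The next genes on the high side were mrps33, mrps21, mrpl21 and mrpl20, and on the low side mrpl55, mrpl49, mrps17, mrpl22 and mrps2. For mrps33 the log2 difference was 0.27 (SE 0.07, limma adjusted p = 0.0819), and it passed in 4 of 21 settings.

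The test of whether the response to day length differed between KO and WT passed for 0 of the 75 genes in limma, and for 0.00549% of all tested genes. At an unadjusted p under 0.05 there were 11 of the 75, against 7.93% of all tested genes. The difference of responses was -1.10 for mrpl49 (SE 0.27, limma adjusted p = 0.328). It was -0.72 for mrps16 (SE 0.17, limma adjusted p = 0.304), whose mean under long days was lower in KO and higher in WT. For mrps30 it was 0.53 (SE 0.22, limma adjusted p = 0.575). The fall of mrpl49 in the knockout is therefore not shown to differ from the wild-type response. The others with large values were mrpl55, mrps24, mrpl16 and mrpl35 on the positive side and mrps17, mrpl36 and mrpl33 on the negative side.

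By origin, 46 of the genes encode proteins with a bacterial counterpart and 26 encode mitochondrial additions, while mrpl55, mrpl58 and mrps36 were not classed. The median of their means was 59.4 TPM with a counterpart and 43.2 TPM for the additions. Under long days the median log2 difference between KO and WT was 0.059 with a counterpart and 0.022 for the additions. Between long and short days in the knockout it was 0.023 with a counterpart, where 30 of 46 genes were higher, and -0.080 for the additions, where 9 of 26 were higher. Over all tested genes it was 0.029, and 55.8% of them were higher. In wild type the genes with a counterpart and the additions lay close together between long and short days. Their medians there were -0.070 with a counterpart, where 18 of 46 were higher, and -0.057 for the additions, where 8 of 26 were higher. Over all tested genes the wild-type median was -0.046, and 38.8% were higher. These splits are descriptions and were not tested. Both genes that passed a test, mrpl49 and mrps30, are additions, but they are too few to show a difference by origin.

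For the 2 genes that passed, the most similar profiles over the 12 libraries were sought by Pearson correlation of log2(TPM + 1), a description that includes the differences between groups. The closest to mrpl49 was aurkaip1 (r = 0.93), then vbp1 (r = 0.92), a prefoldin subunit gene, and LOC101170091 (r = 0.92). Among the 75 genes the closest to mrpl49 were mrpl33 (r = 0.75), mrpl42 (r = 0.70) and mrpl17 (r = 0.67). The closest to mrps30 was ptrh2 (r = 0.92), a gene for a mitochondrial peptidyl-tRNA hydrolase, and among the 75 genes it was mrpl28 (r = 0.73), mrpl20 (r = 0.67) and mrpl19 (r = 0.60).

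Neighbours along the chromosome did not pass with them. Of the genes next to mrpl49, haus7 had a log2 difference of -0.59 and las1l of -0.26 between long and short days in the knockout (limma adjusted p = 0.367 and 0.463). The other pair beside mrpl49 was below the filter. Of the genes next to mrps30, coq5, LOC101163947 and LOC101158254 were tested between KO and WT under long days (limma adjusted p = 0.990, 0.832 and 0.592), and LOC101158503 was below the filter.

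Of 6 further ribosome proteins and partners without an mrp name (dap3, ptcd3, aurkaip1, chchd1, gadd45gip1 and oxa1l), 1 passed in the knockout between long and short days, against 1.76% of all tested genes. This was aurkaip1, whose product is a small-subunit protein. It had 39.8, 44.0 and 43.5 TPM in KO long-day and 54.1, 59.4 and 53.3 TPM in KO short-day libraries, without overlap (log2 difference -0.38, SE 0.08, adjusted p = 0.0408, limma). Leaving out any 1 of these 6 libraries, or WT short-day replicate 3, ended the call, and the adjusted p ran from 0.0192 to 0.145 over 16 settings. The 16 tRNA synthetase genes of mitochondria and the 67 cytosolic ribosomal protein genes had 0 that passed in any of the 7 comparisons in limma. At an unadjusted p under 0.05, the synthetase genes numbered 1 to 4 and the cytosolic ribosomal protein genes 0 to 7 in a comparison, against 7.93% to 18.8% of all tested genes. Without overlap, 31 of the 67 cytosolic ribosomal protein genes were higher in KO than in WT libraries under short days and 0 were lower, against 6.3% higher and 13.2% lower of all tested genes. Their median log2 difference there was 0.12, that of all tested genes was -0.041, and without WT short-day replicate 3 it was 0.090 over these genes.

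Genes that serve the mitochondrial ribosome or import its proteins were read in the same fit, between long and short days over both genotypes. Of 18 import and membrane genes, 17 had lower means under long days and 1 a higher mean (5.56%), against 47.7% higher of all tested genes. Of the 18 genes 6 fell (33.3%), against 1.82% of all tested genes. The import pore gene tomm40 had 45.9, 49.1 and 51.8 TPM in KO and 45.9, 55.7 and 53.6 TPM in WT libraries under long days. Under short days it had 67.8, 74.2 and 71.4 TPM in KO and 68.4, 65.8 and 62.3 TPM in WT libraries, all above the long-day values (log2 difference -0.43, SE 0.06, adjusted p = 0.00374, limma). The import motor chaperone gene hspa9 fell as well (log2 difference -0.35, SE 0.05, adjusted p = 0.00582, limma). The number that fell was 2 to 7 over the settings, and without WT short-day replicate 3 it was 2. The genes tomm40 and hspa9 passed in all 20 settings, while the inner membrane translocase genes timm50 and timm17a passed in 15 and 9.

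Of 16 translation factor genes 2 fell over both genotypes, and of 29 genes for ribosome assembly and rRNA modification 1 fell, against 1.82% of all tested genes. The elongation factor gene gfm1 had 21.9, 22.8 and 24.2 TPM in KO and 18.4, 21.7 and 17.9 TPM in WT libraries under long days. Under short days gfm1 had 28.2, 28.9 and 32.2 TPM in KO and 28.7, 29.0 and 25.9 TPM in WT libraries, without overlap between day lengths (log2 difference -0.43, SE 0.07, adjusted p = 0.00622, limma). It passed in all 20 settings, and tsfm, another elongation factor gene (log2 difference -0.52, SE 0.11, adjusted p = 0.0265, limma), in 13. Without WT short-day replicate 3 the adjusted p of tsfm was 0.0606. The assembly gene that fell was c1qbp (log2 difference -0.37, SE 0.08, adjusted p = 0.0333, limma), which passed in 11 of 20 settings and not without WT short-day replicate 3 (adjusted p = 0.0679).

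Of 27 genes for mitochondrial transcription and RNA care, pprc1, a coactivator of the PGC-1 family, fell over both genotypes, against 1.82% of all tested genes. It had 5.39, 5.00 and 6.61 TPM in KO and 5.48, 6.63 and 7.21 TPM in WT libraries under long days, against 9.67, 10.9 and 12.1 TPM in KO and 8.93, 10.3 and 9.71 TPM in WT libraries under short days (log2 difference -0.68, SE 0.10, adjusted p = 0.00496, limma). The day lengths did not overlap, and pprc1 passed in all 20 settings. The gene gabpa encodes a transcription factor that in mammals drives many nuclear genes for mitochondrial proteins. It was lower in KO short-day libraries (26.5, 30.0 and 28.4 TPM) than in WT short-day libraries (36.7, 36.3 and 39.7 TPM; log2 difference -0.40, SE 0.07, adjusted p = 0.0389, limma), but 7 of 16 settings kept that call, and without WT short-day replicate 3 its adjusted p was 0.161.

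Of 57 genes for the respiratory chain, ATP synthase and their assembly, 35 had higher means under long days over both genotypes (61.4%). That share was 47.7% over all tested genes. Of the 57 genes 1 fell, against 1.82% of all tested genes. This was the assembly factor gene ndufaf2, in 6 of 20 settings. Between KO and WT over both day lengths 1 of the 57 passed, against 2.4% of all tested genes, and this was ndufs1, a core subunit gene of complex I. It had 12.0, 10.7 and 16.4 TPM in KO and 5.23, 6.99 and 5.51 TPM in WT libraries under long days, and 9.02, 9.03 and 7.10 TPM in KO and 6.46, 5.75 and 5.29 TPM in WT libraries under short days. The genotypes did not overlap at either day length (log2 difference 0.73, SE 0.12, adjusted p = 0.0104, limma), and the call was lost with a replicate block alone among 21 settings (adjusted p = 0.196). Genes encoded by mitochondrial DNA, whose messages this ribosome translates, were not analysed here.

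**Figure D5:**
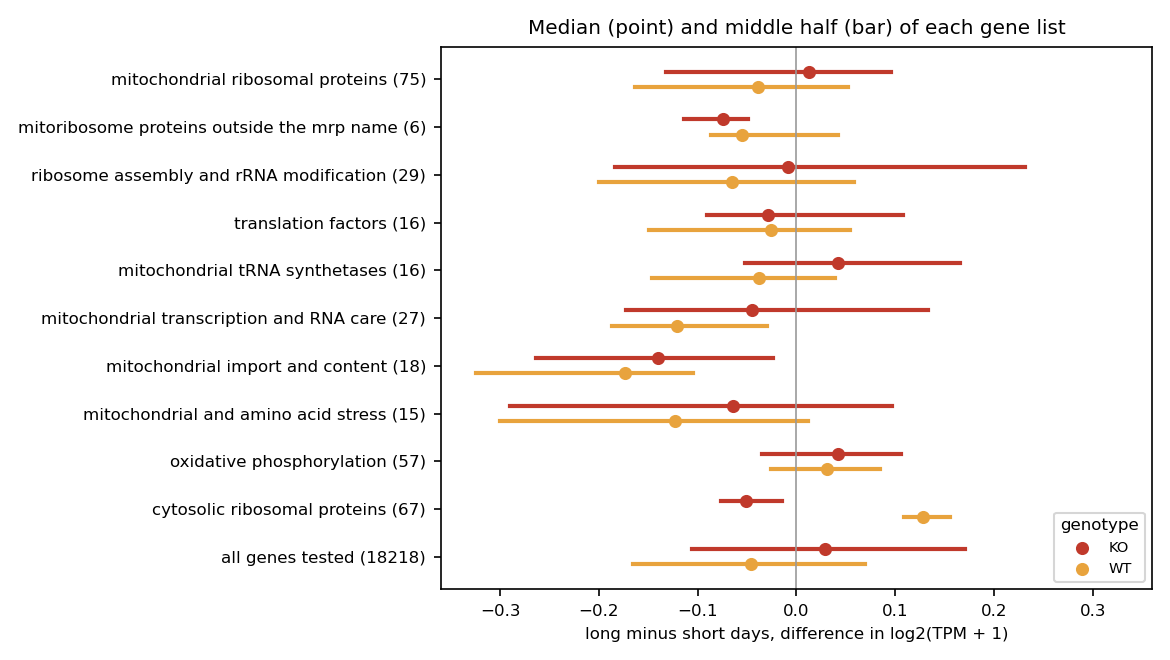
Difference between long and short days in log2(TPM + 1) for the 75 genes and 9 other gene lists, as the median (point) and the 25th to 75th percentile (bar), with KO above WT and the number of genes in brackets. The bars of the mitochondrial ribosomal protein genes lie close to those of all tested genes, while import and content genes lie lower in both genotypes (medians -0.14 in KO and -0.17 in WT).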

How the data were processed

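Brain RNA of 12 libraries was enriched for poly(A), per the labels' protocols, and sequenced as strand-specific paired-end reads. The authors deposited TPM per gene. Per the submitters' processing notes RSEM 1.3.1 and STAR 2.7.9a were used, in roles that are not stated. Coordinates are left out because the genome build is not given in the sources used here. TPM keeps no counts, so depth is unknown. The RefSeq gene table matched all 26663 gene IDs and supplied symbols and neighbouring genes.

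Genes with at least 1 TPM in at least 3 libraries, 18218 in all, entered 1 limma fit (version 3.58.1, R 4.3.3) of log2(TPM + 1) with a mean for each of the 4 groups and a trend of variance on level. The pseudocount of 1 understates changes of low genes. Tests were two-sided, and a gene passed at a Benjamini-Hochberg adjusted p under 0.05 over all tested genes. The fit was also run on simulated log2 values, drawn independently with normal errors. Such a run cannot show how TPM scaling or single stray libraries affect the calls, and its outcome is not used here. The 75 genes and all gene lists were chosen with earlier results of these data known, so no test over a list was run. In each comparison the text names genes that passed and the 5 largest differences each way. It also names the 5 highest, lowest, steadiest and least steady genes, those sharing a number, and at most 4 genes that passed from each other list. The other genes without overlap, and those under single libraries, were chosen after their values were seen. Alternatives were a pseudocount of 0.1, filters of TPM above 0 in any library or at least 5 TPM in at least 3, scaling by median ratios, leaving out the 20 most abundant genes, no trend, array weights, the 2 compared groups alone, a replicate block and leaving out each library. Leaving WT short-day replicate 3 out of comparisons that do not contain it, and the alternatives for the other lists, were added after seeing the data. The result of each other list in the remaining comparisons is in the closing section.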

Additional observations from a re-analysis of the deposited data

How the results depend on the processing

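Precision is limited by 3 libraries per group, by TPM without counts, and by the shared estimate of spread, which rested on 8 residual degrees of freedom. The fall of mrpl49 under long days in the knockout passed in every setting run, and the comparisons of wild-type day length, of genotype under short days and of responses had 0 genes of the 75 in every setting. The other counts moved. In the knockout, array weights gave 2 genes that passed between long and short days (mrpl41 and mrpl49), and leaving out any 1 library gave 1. Between KO and WT under long days the count was 2 with the filter of at least 5 TPM, without the 20 most abundant genes or with array weights, and 0 with the filter of TPM above 0 in any library, without a trend or with the replicate block. Leaving out 1 library gave 0 to 1. With median-ratio scaling the single gene was mrpl49 in place of mrps30. Over both genotypes, array weights gave 2 for day length, and leaving out 1 library 0 to 2. Over both day lengths, median-ratio scaling and array weights each gave 2 for genotype, and the replicate block gave 0, while leaving out 1 library gave 0 to 1. The median difference of responses over the 75 genes was 0.041, -0.041 with median-ratio scaling, where that of all tested genes was 0.0008, and -0.0086 to 0.097 with 1 library left out. Median-ratio scaling also turned the sign of their median for day length, to 0.012 in wild type and -0.018 in the knockout. For genotype it turned to 0.023 under short days and -0.015 under long days. With 1 library left out, the knockout day-length median ran from -0.037 to 0.012. That for genotype under long days ran from -0.0028 to 0.048. Of the named genes, 3 results changed sign, none of them passing. The mrpl27 difference in wild type was -0.23 without WT short-day replicate 2 (-0.23 to 0.48 with 1 library left out), and the mrpl21 difference between genotypes under long days was -0.061 with array weights and -0.027 without WT long-day replicate 13 (-0.027 to 0.52 with 1 library left out). The cause was not tested. Of the other results for named genes under an alternative, 1159 kept their side of the threshold, 10 passed newly and 18 no longer passed. Libraries with the same number in KO and WT deviated from their group means with correlations of -0.048 and -0.0049 under long days and 0.082 and 0.088 under short days. Pairs with different numbers ran from -0.078 to 0.092 under long days. Under short days they ran from -0.140 to 0.048, below both pairs with the same number. The main fit did not pair the numbers, but these values cannot exclude a pairing under short days. Genotype calls of the genes named here were all lost with the replicate block. That block compared genotypes only through libraries with the same number. KO long-day replicate 16, WT long-day replicate 15, KO short-day replicate 4 and WT short-day replicate 2 had no partner and added nothing. It also left fewer residual degrees of freedom than the main fit. These losses therefore cannot tell a pairing from a weaker test.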

Other observations

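Among 15 genes of mitochondrial and amino acid stress, 4 fell between long and short days over both genotypes, against 1.82% of all tested genes in limma. Besides hspa9 they were psat1, of serine synthesis, hspd1, the mitochondrial chaperonin, and chac1, which breaks down glutathione. The level of psat1 was 67.6 ± 7.04 TPM in KO and 66.9 ± 9.79 TPM in WT libraries under long days, and 90.4 ± 4.22 TPM in KO and 92.1 ± 4.97 TPM in WT libraries under short days (SD, n = 3 each; log2 difference -0.44, SE 0.07, adjusted p = 0.00956, limma). It passed in all 20 settings, and hspd1 in all but 1, which left out KO long-day replicate 14 (adjusted p = 0.0566). The fall of chac1 passed in 12 of 20 settings and was lost without WT short-day replicate 3 (adjusted p = 0.067), among others. The number of the 15 genes that passed was 2 to 4 over the settings.

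Between KO and WT over both day lengths chac1 fell (log2 difference -0.53, SE 0.07, adjusted p = 0.00366, limma), with 346, 377 and 376 TPM in KO and 517, 612 and 512 TPM in WT libraries under long days. Under short days it had 453, 426 and 555 TPM in KO and 641, 677 and 690.4 TPM in WT libraries. The genotypes did not overlap at either day length, and the replicate block was the only 1 of 21 settings to end the call (adjusted p = 0.056). Also lower in KO was ddit3, a transcription factor gene of the stress response (log2 difference -0.45, SE 0.10, adjusted p = 0.0377, limma), in 7 of 21 settings and not without WT short-day replicate 3 (adjusted p = 0.0717). Together 2 of the 15 stress genes passed (13.3%), against 2.4% of all tested genes, and 0 to 2 passed over the settings.

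The calls of the lists in the remaining comparisons, all in limma, were as follows. Between long and short days in the knockout, 2 of the 27 transcription and RNA care genes (7.41%) and 1 of the 18 import and membrane genes (5.56%) passed. Of all tested genes 1.76% passed there. In the knockout between long and short days pprc1 fell in 12 of 16 settings and tomm40 in 15. The gene gabpa rose there in 7 of 16 settings, and leaving out any 1 of the 6 KO libraries or WT short-day replicate 3 ended that call (adjusted p = 0.0315 to 0.135 over the settings). Between KO and WT under long days, 1 of the 57 respiratory chain genes (1.75%) and 1 of the 15 stress genes (6.67%) passed. The share over all tested genes was 0.642%. Under long days ndufs1 was higher in KO in 12 of 17 settings (adjusted p = 0.0074 to 0.363) and chac1 lower in 9 of 17 (adjusted p = 0.0111 to 0.169). The replicate block ended both calls. Leaving out any 1 of the 6 long-day libraries ended that of chac1, and leaving out KO replicate 16 or WT replicate 13 or 15 ended that of ndufs1. Between KO and WT under short days, 1 of the 57 respiratory chain genes (1.75%) and 1 of the 27 transcription and RNA care genes (3.70%, gabpa) passed. The share over all tested genes was 0.664%. Under short days ndufv3, an accessory subunit gene of complex I, was lower in KO, with 10.6, 6.21 and 6.55 TPM in KO and 14.6, 15.2 and 14.9 TPM in WT libraries (log2 difference -0.89, SE 0.18, adjusted p = 0.0499, limma). It passed in 3 of 16 settings, and without WT short-day replicate 3 its adjusted p was 0.168. The 5 interferon and antiviral genes had 0 that passed in any comparison, against 0.00549% to 3.08% of all tested genes. At an unadjusted p under 0.05 they numbered 0 to 1, against 7.93% to 18.8% of all tested genes. With 5 genes, and WT short-day replicate 3 far above the other libraries, these counts say little.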
